A study of Homo sapiens with 7 samples.

Results

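The cells described here lacked both surface proteins used for a day 3 sort of human embryonic stem cells (hESC) on their way to heart muscle: CD13, encoded by ANPEP, and ROR2. The day 3 CD13-/ROR2- library was set against the library of undifferentiated hESC, which makes 2 of the 7 libraries of the series, 1 per group. The cells were of a line labelled H3 that carries an eGFP reporter at NKX2-5 and an mCherry reporter of alpha-MHC, so both libraries share these reporters. The line's label differs between samples in a number beside NKX2 that counts upward and was read as a copying slip. The CD13-/ROR2- cells had gone through 3 days of cardiac differentiation and the hESC through 0, and all samples were sorted 2 times. The sources used here name neither the differentiation factors nor the number of cultures behind a library. Labels call the CD13-/ROR2- cells an endoderm progenitor, and the CD13+/ROR2+ cells of the same day, used below for side-by-side values, a mesoderm progenitor. The day 7 and day 14 libraries are all labelled as CD13+/ROR2+ cells, so no library follows the CD13-/ROR2- cells to a later day.

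Gastrulating cells leave the pluripotent epiblast through the primitive streak, where NODAL, WNT, BMP and FGF signals set their fate. Brachyury, MIXL1 and EOMES mark the streak. Cells under strong BMP signal that do not enter the streak can form amnion or surface ectoderm, which AP-2, MSX, DLX and GATA3 factors mark in textbook accounts. Definitive endoderm is known by SOX17, FOXA2 and CXCR4, and neural ectoderm by PAX6 and SOX1. The question put to the comparison was which of these identities the negative fraction resembles.

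Expression was read as FPKM, fragments scaled to transcript length and to the mapped fragments of the library. With 1 library per group no spread between replicates exists, so no difference below has a test, an error or a p-value. A gene was counted when it reached 5 FPKM in at least 1 of the 2 libraries, and called higher or lower when log2 of (FPKM + 1) in CD13-/ROR2- over (FPKM + 1) in hESC was at least 2 in size, which is 4-fold on that scale. A gene that reached 5 FPKM in only 1 library could be called only toward that library. This holds for most called list members below, so their direction was set by the filter. Of 21579 genes left after small RNA and HIST symbols were set aside, 5621 were counted, and 64 were called higher (1.14%) and 45 lower (0.801%), together 1.94%. A log2 ratio of at least 1 was met by 454 counted genes upward (8.08%) and 373 downward (6.64%), and the median log2 ratio of all counted genes was -0.02. In CD13+/ROR2+, 55 of the 64 were also above their hESC level and 41 of the 45 below it, by any amount. No share over all genes was computed for these counts, or for counts of list members above hESC given below. The median log2 ratio of all 21579 genes was 0. At the cut, HTR1B had a log2 ratio of 2.01 and was counted as higher, while MRC2 at 1.98 was not. On the lower side PHPT1 at -2.01 was counted and RAB17 at -1.97 was not. A fold below is 1 FPKM value divided by another, and none is given where a gene is listed at 0 in either library.

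The sort genes were low in both libraries. ANPEP stood at 0.984 FPKM in CD13-/ROR2- and 0.330 in hESC, and ROR2 at 3.16 and 1.12 FPKM in the same order. The CD13+/ROR2+ library had ANPEP at 12.0 and ROR2 at 20.6 FPKM. Steps between the lowest values put the depth of the CD13-/ROR2- library at 1.31 times that of hESC. Genes of at least 1 FPKM numbered 10735 in CD13-/ROR2- and 10788 in hESC. Small RNA and HIST symbols held 3.19% of the FPKM sum in CD13-/ROR2- and 33.8% in hESC, where MIR612 alone held 26.6%.

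**Figure D1:**
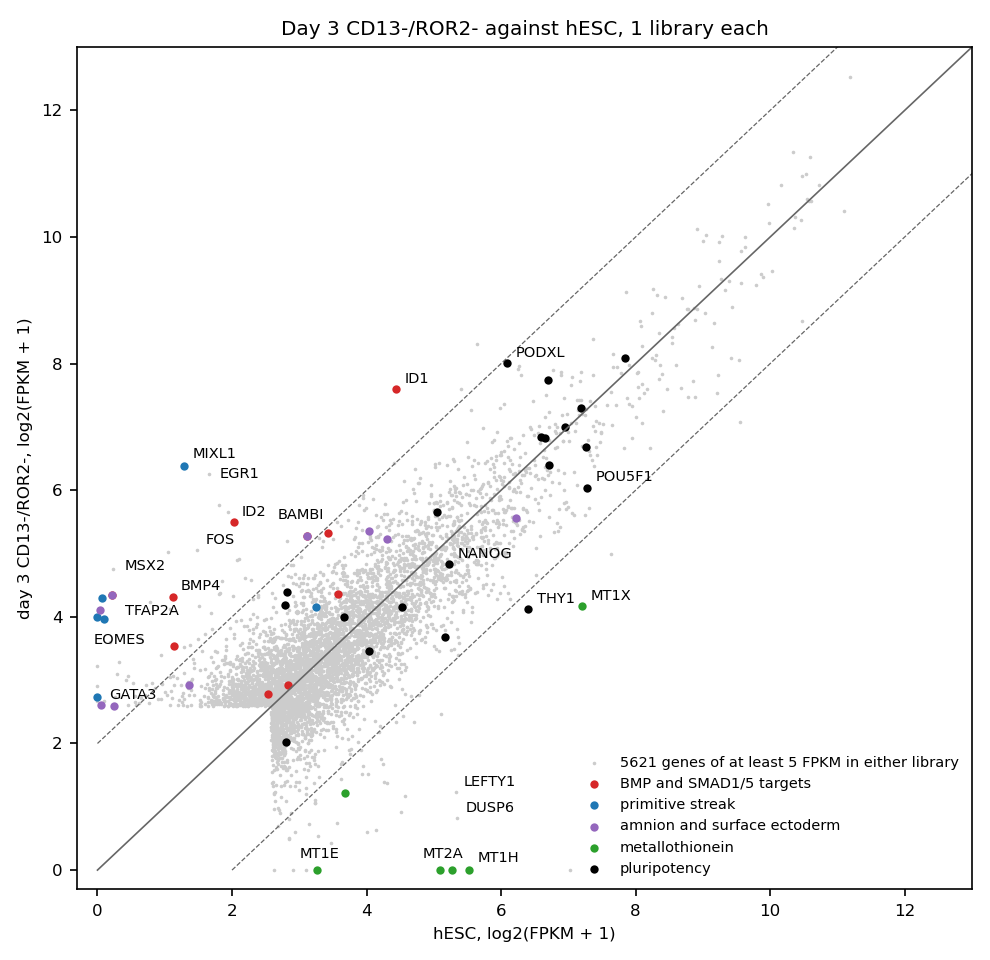
Each point is 1 of the 5621 counted genes, with its level in CD13-/ROR2- on the vertical axis and in hESC on the horizontal axis, both as log2(FPKM + 1); dashed lines mark 4-fold on that scale. Coloured points are members of 5 gene lists (a gene on more than 1 list has the later colour of the legend), with ID1, MIXL1 and MSX2 above the upper line and 6 metallothionein genes below the lower one.

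Most pluripotency transcripts were still present in the CD13-/ROR2- library, and their levels differed from hESC in both directions. Of 23 such genes, 20 were counted, 0 were called higher and 1 lower, and the median log2 ratio of all 23 was 0.04. A log2 ratio of 1 was met upward by 4, among them GDF3 (20.1 against 6.04 FPKM), and downward by 3, among them USP44 (11.8 against 34.9 FPKM). In bulk RNA, fewer cells of a type and less RNA per cell cannot be told apart, so these levels do not say whether all cells or only some kept them. NANOG, a homeodomain factor of pluripotent cells, stood at 27.5 FPKM in CD13-/ROR2-, 0.660 in CD13+/ROR2+ and 36.5 in hESC. DPPA4, a chromatin protein of pluripotent cells, was at 272 and 229 FPKM in CD13-/ROR2- and hESC. The non-coding transcript ESRG had 213 and 103 FPKM, and DNMT3B, a de novo DNA methyltransferase, 127 and 123. POU5F1, which encodes OCT4, was lower at 64.8 FPKM in CD13-/ROR2- against 154 in hESC, a 2.38-fold difference that falls short of the 4-fold rule.

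Surface genes of the pluripotent state differed in both directions. THY1 (CD90) was the 1 list member called lower, at 16.4 FPKM in CD13-/ROR2- against 83.6 in hESC. PODXL, the sialomucin that carries the TRA-1 epitopes, was at 256 FPKM in CD13-/ROR2- against 67.3 in hESC. This is 3.80-fold higher, but at a log2 ratio of 1.91 it fell just short of the cut and was not called. Of 10 genes linked to naive pluripotency none reached 5 FPKM in either library, and KLF17 was listed at 0 in both. Epithelial junction genes likewise stood near their hESC level, with 18 of 24 counted, 0 called in either direction and a median of -0.08 over all 24. EPCAM was at 50.3 FPKM in CD13-/ROR2-, 11.3 in CD13+/ROR2+ and 57.1 in hESC. E-cadherin (CDH1) was 1.94-fold higher in CD13-/ROR2- than in hESC, where it had 23.2 FPKM. Among 20 mesenchymal genes 8 were counted, 0 were called higher and 1 lower, THY1 again. Vimentin (VIM) was at 27.6 FPKM in CD13-/ROR2-, 272 in CD13+/ROR2+ and 10.5 in hESC.

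Several genes of the primitive streak were higher in CD13-/ROR2- than in hESC. Of 20 streak genes, 5 were called higher and 0 lower in CD13-/ROR2- over hESC, with 6 counted at all and a median of 0.94 over all 20. Above the hESC level were 18 of the 20, and 12 reached 1 FPKM in CD13-/ROR2-, 14 in CD13+/ROR2+ and 4 in hESC. Counts above the hESC level, here and below, include members under 1 FPKM in both libraries, such as LHX1 (0.245 against 0.0326). The 5 were MIXL1, T, EOMES, WNT8A and SP5. All 5 reached the minimum through their CD13-/ROR2- level alone, so that filter set the direction of their ratios. T, the gene of brachyury, was at 18.7 FPKM in CD13-/ROR2-, 7.32 in CD13+/ROR2+ and 0.0485 in hESC. WNT8A, a ligand of the streak, was at 14.6 FPKM in CD13-/ROR2-, 1.68 in CD13+/ROR2+ and 0.0669 in hESC. For T and WNT8A the CD13-/ROR2- library thus stood above the other 6, where the highest values were those of CD13+/ROR2+.

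The rest of the streak list was mixed between the day 3 fractions. MIXL1, EOMES, LHX1 and FGF17 were among those lower in CD13-/ROR2- than in CD13+/ROR2+, while SP5 had 5.65 and 6.06 FPKM. Members higher in CD13-/ROR2- included FOXH1 (16.7 against 10.8 FPKM in CD13+/ROR2+) and EVX1 (0.878 against 0.344). FGF4 (2.18 against 0.189 FPKM) and CDX2 (1.63 FPKM, listed at 0 in CD13+/ROR2+) were higher too. MIXL1, a homeobox gene of nascent mesendoderm, was at 82.0 FPKM in CD13-/ROR2-, 210 in CD13+/ROR2+ and 1.43 in hESC. EOMES, a T-box gene needed for endoderm and cardiac mesoderm, had 14.9 FPKM in CD13-/ROR2- but 71.0 in CD13+/ROR2+, and was listed at 0 in hESC. LHX1, a gene of the organizer, was at 0.245 FPKM in CD13-/ROR2-, 73.7 in CD13+/ROR2+ and 0.0326 in hESC. FGF17 had 0.328, 37.1 and 0.142 FPKM in the same order. NODAL itself differed little, with 4.79, 7.32 and 4.06 FPKM in CD13-/ROR2-, CD13+/ROR2+ and hESC.

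The mesoderm genes called higher over hESC were all lower in CD13-/ROR2- than in CD13+/ROR2+. Of 25 genes of nascent and cardiac mesoderm, 6 were called higher and 0 lower over hESC, with 7 counted and a median of 0.47 over all 25. Called genes such as MFAP4, APLNR, HAND1 and HAS2 reached the minimum through their CD13-/ROR2- level alone, which set their direction. MFAP4, a microfibril protein, was at 49.6 FPKM in CD13-/ROR2-, 486 in CD13+/ROR2+ and 2.85 in hESC. The apelin receptor gene APLNR was at 8.79 FPKM against 0.250 in hESC, and its CD13+/ROR2+ level was 36.5-fold that of CD13-/ROR2-. HAND1 was at 8.29 FPKM and listed at 0 in hESC, and the hyaluronan synthase gene HAS2 at 9.53 against 0.922. MESP1, which marks the first cardiac mesoderm, was at 1.84 FPKM and its paralog MESP2 at 3.78, both listed at 0 in hESC. PDGFRA, a receptor gene used to sort cardiac mesoderm, had 0.516, 13.3 and 0.478 FPKM in CD13-/ROR2-, CD13+/ROR2+ and hESC. KDR, another receptor gene of the list, had 16.2, 8.04 and 13.3 FPKM.

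The defining endoderm markers FOXA2, FOXA1 and CXCR4 were at or near 0 and SOX17 was low, so these markers did not bear out the endoderm label. Other list members went the other way, such as GATA6, at 5.34 FPKM in CD13-/ROR2-, 79.4 in CD13+/ROR2+ and 0 in hESC. With 1 bulk library the label cannot be settled. FOXA2, the forkhead factor of definitive endoderm and node, had 0.0874 FPKM in CD13-/ROR2- and 0.0572 in hESC. FOXA1 was listed at 0 in CD13-/ROR2- and stood at 0.0347 in hESC. SOX17 had 2.71 FPKM in CD13-/ROR2- against 17.8 in CD13+/ROR2+, and was listed at 0 in hESC. CXCR4 had 0.507, 10.2 and 0.156 FPKM in these libraries. Of 19 genes on the list 4 were counted, 2 were called higher (CER1 and GATA6) and 1 lower (SHISA2, whose Xenopus relative holds WNT and FGF receptors in the cell), with a median of 0.27 over all 19. CER1, whose product binds and blocks NODAL, BMP and WNT ligands, was at 11.7 FPKM against 0.549 in hESC, and 148-fold higher in CD13+/ROR2+ than in CD13-/ROR2-. Of the 19, 12 were above their hESC level, and 11 reached 1 FPKM in CD13-/ROR2-, 18 in CD13+/ROR2+ and 5 in hESC. The cells are therefore named here by their sort, CD13-/ROR2-.

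**Figure D2:**
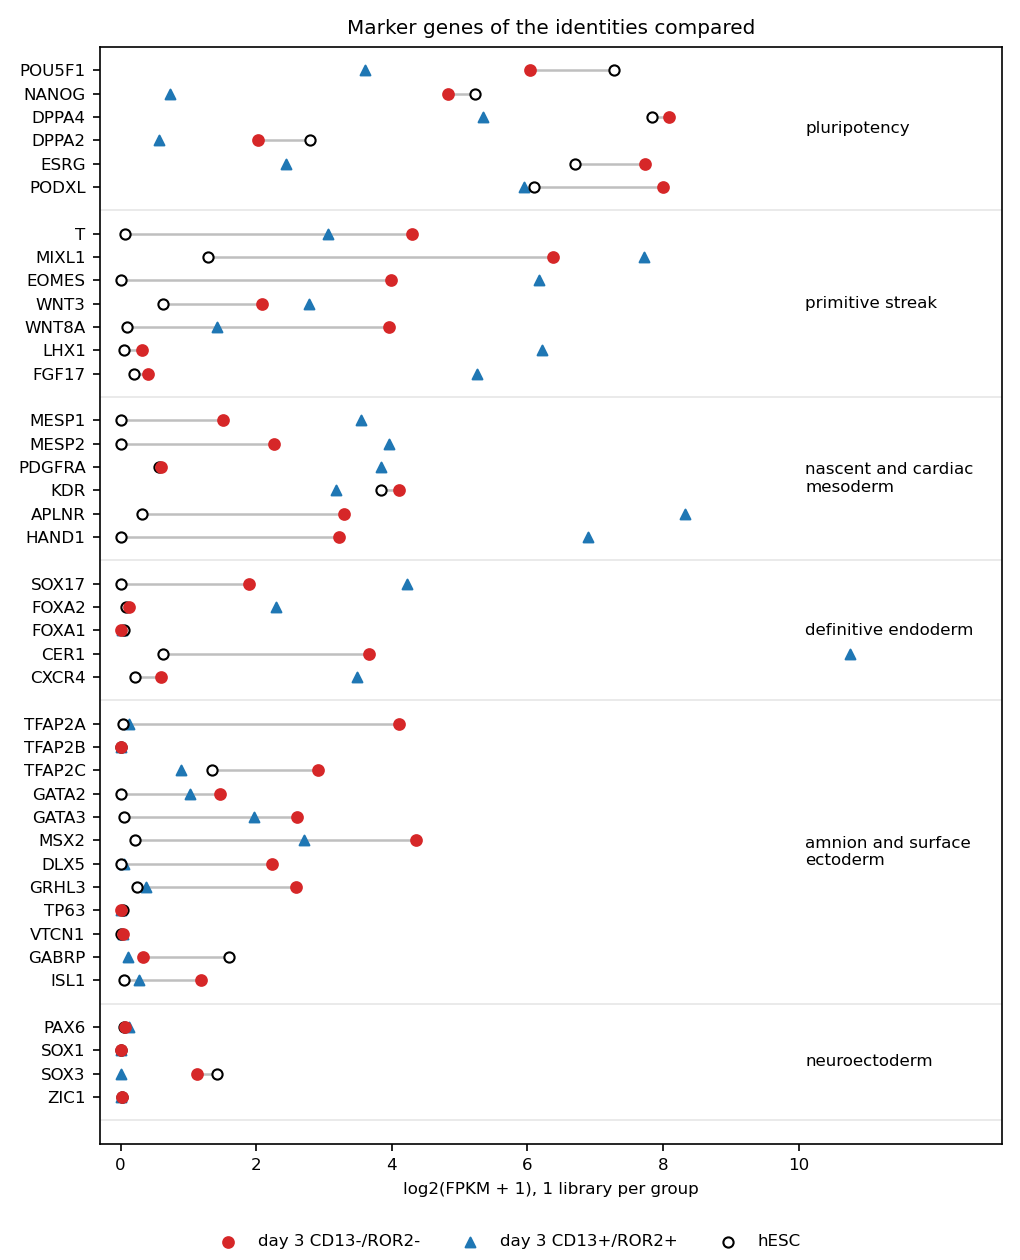
Levels of marker genes as log2(FPKM + 1) in CD13-/ROR2- (red circles), CD13+/ROR2+ (blue triangles) and hESC (open circles), 1 library each, grouped by list; grey bars join CD13-/ROR2- to hESC. CD13-/ROR2- sits near hESC for NANOG and DPPA4, away from both for TFAP2A, and below CD13+/ROR2+ for mesoderm and endoderm genes such as APLNR and CER1.

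TFAP2A, TFAP2C, MSX2 and GRHL3, transcription factor genes of the amnion and surface ectoderm list, were higher in CD13-/ROR2- than in both CD13+/ROR2+ and hESC. Of 32 genes on that list, 5 were called higher and 0 lower over hESC (TFAP2A, MSX2, GATA3, GRHL3 and BAMBI), with 9 counted and a median of 0.58 over all 32. All 5 but BAMBI reached the minimum through their CD13-/ROR2- level alone, so the filter set the direction of their ratios. BAMBI also stands on the BMP list below, and its highest level was 92.4 FPKM, in day 14 aMHC-. The summed FPKM of the amnion and surface ectoderm list was 233 in CD13-/ROR2-, 218 in CD13+/ROR2+ and 124 in hESC. The highest sum among the 7 libraries was 1829, in a later fraction, so this sum does not set CD13-/ROR2- apart. TFAP2A, which encodes AP-2 alpha, was at 16.2 FPKM in CD13-/ROR2-, 0.0931 in CD13+/ROR2+ and 0.0277 in hESC. Among the later fractions, all labelled CD13+/ROR2+, its highest value was 1.22 FPKM, in day 7 NKX2-5-. TFAP2C was at 6.55 FPKM in CD13-/ROR2-, 0.855 in CD13+/ROR2+ and 1.56 in hESC, while TFAP2B was listed at 0 in all 3. MSX2, a homeobox gene induced by BMP, was at 19.4 FPKM in CD13-/ROR2-, 5.50 in CD13+/ROR2+ and 0.158 in hESC.

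GRHL3, a grainyhead factor of surface ectoderm, was at 5.04 FPKM in CD13-/ROR2-, 0.294 in CD13+/ROR2+ and 0.181 in hESC. FOXI3, a forkhead gene of the ectoderm that forms cranial placodes, is not on the amnion and surface ectoderm list and was among the 20 highest ratios. It was at 11.2 FPKM in CD13-/ROR2-, 0.137 in hESC, and listed at 0 in the other 5 libraries. GATA3 differed less between the day 3 fractions, with 5.08, 2.92 and 0.0325 FPKM in CD13-/ROR2-, CD13+/ROR2+ and hESC. Below the minimum for counting, and chosen after their values were seen, DLX5 had 3.70 FPKM in CD13-/ROR2-, 0.0333 in CD13+/ROR2+, and was listed at 0 in hESC. Its neighbour DLX6 had 2.51 FPKM in CD13-/ROR2-, 0.0183 in CD13+/ROR2+, and was likewise listed at 0 in hESC.

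Several other genes of the list were at 0 or low. TP63, the master factor of stratified epithelium, and the basal keratin genes KRT14 and KRT5 were listed at 0 in CD13-/ROR2-. The amnion-associated genes VTCN1, GABRP and ISL1, also picked after their values were seen, were at 0.0253, 0.263 and 1.28 FPKM in CD13-/ROR2- and at 0, 2.04 and 0.0324 in hESC. KRT7 had 0.186 FPKM in CD13-/ROR2- and 1.03 in hESC. On the trophoblast list only 1 of 15 measured genes was counted and 0 were called, and CGA, CGB5 and GCM1 were listed at 0 in both libraries. Of 20 neuroectoderm genes 0 were called and 2 were counted (ZIC2 and NES), with PAX6 at 0.0502 and SOX1 listed at 0 in CD13-/ROR2-, against 0.0374 and again 0 in hESC. TFAP2A was also the 1 of 12 neural crest genes called higher, with 4 counted. Endothelial and blood genes had 3 of 20 counted and 0 called, and CDH5, TAL1 and GATA1 were listed at 0 in CD13-/ROR2-. As 1.94% of all counted genes were called, 0 calls among so few counted genes do not show that a cell type was absent.

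**Figure D3:**
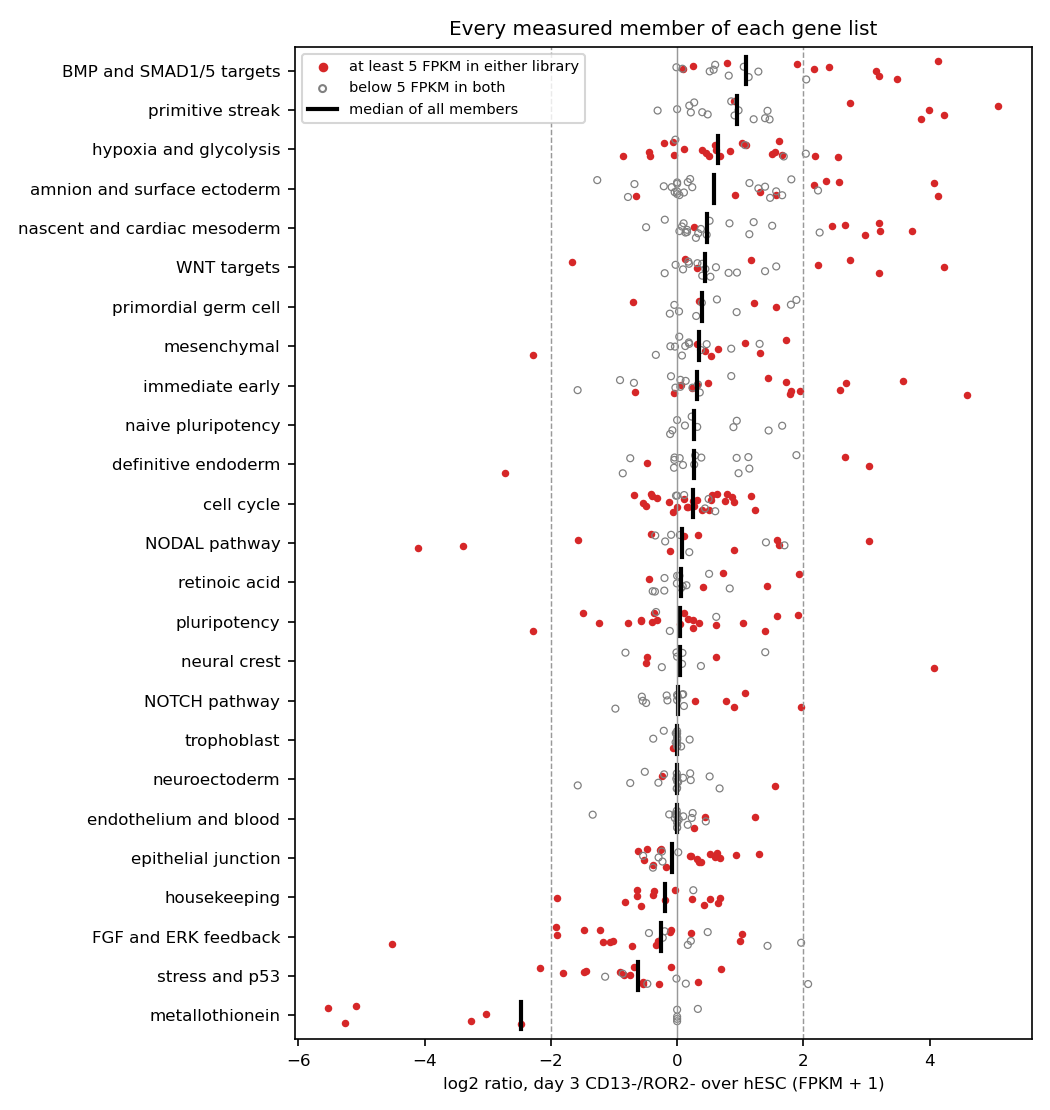
Log2 ratios of FPKM + 1 in CD13-/ROR2- over hESC for every measured member of 25 gene lists, ordered by the median of all members (black bars); filled points reached 5 FPKM in either library and dashed lines mark 4-fold. BMP and SMAD1/5 genes have the highest median, 1.09, and metallothionein genes the lowest, -2.47.

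Of the signalling pathways, BMP had the highest list median. BMP ligands bind paired kinase receptors that phosphorylate SMAD1, SMAD5 and SMAD9, which switch on the ID genes, whose products block basic helix-loop-helix factors. Of 20 genes, 6 were called higher and 0 lower, with 10 counted and a median of 1.09 over all 20, against 0 over all 21579 genes. Among ligands, BMP4 was at 19.0 FPKM in CD13-/ROR2- against 1.17 in hESC (16.2-fold), although CD13+/ROR2+ held 77.1. BMP2 was at 1.30, 30.8 and 0.106 FPKM in CD13-/ROR2-, CD13+/ROR2+ and hESC. The receptor gene BMPR1A was at 19.7 FPKM in CD13-/ROR2-, 4.03 in CD13+/ROR2+ and 11.0 in hESC.

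The ID genes, the immediate readout, were high where the ligand genes were not highest. ID1 was at 192 FPKM in CD13-/ROR2-, 17.4 in CD13+/ROR2+ and 20.7 in hESC, a 9.29-fold difference from hESC. ID2 had 44.3, 8.44 and 3.07 FPKM in these libraries, and ID3 39.1, 15.8 and 9.77. ID4 was at 4.08, 0.209 and 0.230 FPKM, under the minimum for counting. CD13+/ROR2+ thus held more BMP4 and BMP2 transcript than CD13-/ROR2-, and less of all 4 ID transcripts. Of the feedback genes, SMAD6, an inhibitory SMAD, had 10.6 FPKM in CD13-/ROR2-, 15.9 in CD13+/ROR2+ and 1.19 in hESC. BAMBI, a decoy receptor, had 37.7 FPKM in CD13-/ROR2-, 23.8 in CD13+/ROR2+ and 7.65 in hESC.

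On the WNT list 4 of 23 genes were called higher and 0 lower (8 counted, median 0.45 over all 23), and 3 of the 4, T, SP5 and BMP4, also stand on the streak, mesoderm or BMP lists. TCF7, a nuclear partner of beta-catenin, was the other, at 10.5 FPKM in CD13-/ROR2- against 1.44 in hESC. Above their hESC level were 20 of the 23, among them LEF1, a partner of beta-catenin like TCF7, with 2.71 FPKM against 0.249. AXIN2, a direct feedback target of the pathway, had 2.54 FPKM in CD13-/ROR2- and 2.61 in hESC. SFRP1, a secreted WNT antagonist that is on no list, was at 0.879 FPKM in CD13-/ROR2-, the lowest of the 7 libraries, 38.0 in CD13+/ROR2+ and 21.9 in hESC. Of 18 NODAL pathway genes 1 was called higher (CER1) and 2 lower (LEFTY1 and INHBE), with a median of 0.07. LEFTY1, a NODAL feedback inhibitor, was at 1.34 FPKM against 39.1 in hESC (29.2-fold lower), and its close paralog LEFTY2 at 4.22 against 14.5, where shared reads may have been split either way. In CD13+/ROR2+ LEFTY1 was at 9.92 and LEFTY2 at 16.9 FPKM. The co-receptor gene TDGF1 had 157 FPKM in CD13-/ROR2- and 145 in hESC.

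Of the feedback genes of the FGF and ERK pathway, DUSP6 stood apart. DUSP6, a phosphatase that inactivates ERK, was at 0.772 FPKM in CD13-/ROR2- against 39.5 in hESC, 51.2-fold lower and the lowest of the 7 libraries. In CD13+/ROR2+ DUSP6 was at 6.15 FPKM, also lower than in hESC, at a log2 ratio of -2.50. DUSP6 was the 1 gene of 24 called lower in CD13-/ROR2-, with 0 called higher, 16 counted and a median of -0.26 over all 24. By the log2 ratio of 1, 8 of the 24 were lower and 1 higher, SPRED2 (9.28 FPKM in CD13-/ROR2- against 4.06 in hESC), and 8 of the 24 were above their hESC level. The Sprouty genes SPRY1 (4.77 against 4.13) and SPRY2 (7.49 against 8.05) were near it. The 8 lower genes included the ETS factor genes ETV4 (3.85 against 17.4 FPKM in hESC) and ETV5 (3.86 against 10.3), and SPRY4, a Sprouty inhibitor (31.2 against 66.7). In CD13+/ROR2+ ETV4 and ETV5 were at 3.66 and 2.99 FPKM, close to CD13-/ROR2-, and SPRY4 was at 62.9. Transcripts of the receptor FGFR1 stood at 34.3 FPKM in CD13-/ROR2- and 16.7 in hESC.

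Of 27 immediate early genes, 4 were called higher and 0 lower (15 counted, median 0.31 over all 27), and 9 met the log2 ratio of 1. EGR1, a zinc finger factor, was at 75.4 FPKM in CD13-/ROR2-, 31.5 in CD13+/ROR2+ and 2.16 in hESC, so both day 3 fractions were above hESC. FOS and FOSB, which form AP-1 with JUN proteins, were at 32.2 and 6.97 FPKM against 1.79 and 0.336 in hESC. CYR61, a matricellular protein gene, was at 17.1 FPKM against 1.84. The 4 called genes reached the minimum through CD13-/ROR2- alone, which set their direction. JUN was at 6.61 FPKM against 1.21, whereas ATF3 was at 1.99 against 3.81. For EGR1, the gene of this group with the largest ratio, the 250 bases before its start in RefSeq (GRCh38.p14, chr5:138465229-138465478, plus strand) hold 2 matches to the CArG box, the site of serum response factor, searched on both strands and shown in capitals.
EGR1: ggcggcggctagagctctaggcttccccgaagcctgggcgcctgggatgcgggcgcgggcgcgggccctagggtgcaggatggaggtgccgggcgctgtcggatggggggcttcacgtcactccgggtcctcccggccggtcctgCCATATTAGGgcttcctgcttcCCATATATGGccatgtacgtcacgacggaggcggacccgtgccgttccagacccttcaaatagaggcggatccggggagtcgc
A match was present in 1.16% of 35116 such windows, and in 3 of 19 immediate early genes with an entry (EGR1, EGR2 and SRF). FOS and FOSB had none in this window. EGR2 had 0.676 FPKM in CD13-/ROR2- and 0.526 in hESC, and SRF at 6.98 and 7.23, so genes with a match did not share the level of EGR1.

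**Figure D4:**
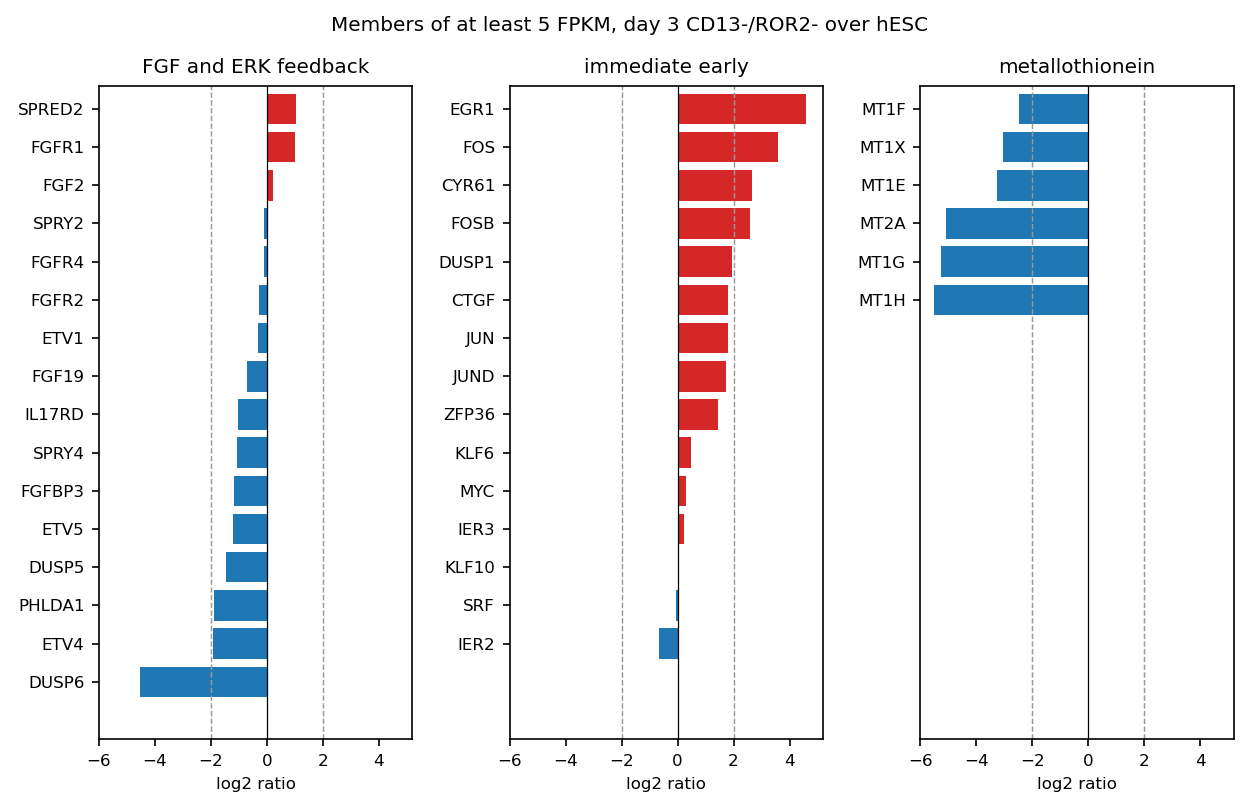
Log2 ratios of FPKM + 1 in CD13-/ROR2- over hESC for members of 3 lists that reached 5 FPKM in either library, with dashed lines at 4-fold. DUSP6 lies at -4.52 among FGF and ERK feedback genes, EGR1 at 4.60 among immediate early genes, and the 6 metallothionein genes between -5.52 and -2.47.

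Metallothionein genes, which encode small cysteine-rich proteins that bind zinc and copper and are induced by metal through the factor MTF1, were lower as a group. Of 11 genes 6 were counted and all 6 were called lower, with a median of -2.47 over the 11, of which MT1A, MT1B, MT1L and MT1M were listed at 0 in both libraries. All counted members but MT1X passed the minimum through their hESC level alone, so the direction of their ratios was set by that filter. MT1X was at 16.9 FPKM in CD13-/ROR2- against 146 in hESC, and MT1F at 1.33 against 11.9. MT1H, MT1G, MT2A and MT1E were listed at 0 in CD13-/ROR2- and stood between 8.57 FPKM (MT1E) and 45.02 FPKM (MT1H) in hESC. The summed FPKM of the list was 18.5 in CD13-/ROR2-, 9.12 in CD13+/ROR2+ and 282 in hESC, which was the highest of the 7 libraries.

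Metallothionein values carry 3 further limits. MT1H, MT1G, MT2A and MT1E rest on a listed 0 in CD13-/ROR2-, where ARPC2 is also listed at 0, so these can be failed estimates. With genes listed at 0 left out, MT1X and MT1F remain, with a median of -2.75. Metallothionein paralogs are near identical, so reads may have been assigned to the wrong member. Short transcripts were also lower in general: counted genes whose longest GENCODE 29 transcript is under 1000 bases had a median log2 ratio of -0.38 (188 genes, 4.79% called lower) against 0.00 for the other 5000 with a length (0.660% called lower), and MT1E, MT1G, MT1H and MT2A fall under that length. The part of transcript length in their values was not tested. Upstream windows of 250 bases from RefSeq (GRCh38.p14, chromosome 16, plus strand) are shown for the 3 called genes with an entry, with matches to the metal response element, TGCACNC or TGCGCNC on either strand, in capitals. They lie at chr16:56669564-56669813 (MT1H), chr16:56608334-56608583 (MT2A) and chr16:56682220-56682469 (MT1X).
MT1H: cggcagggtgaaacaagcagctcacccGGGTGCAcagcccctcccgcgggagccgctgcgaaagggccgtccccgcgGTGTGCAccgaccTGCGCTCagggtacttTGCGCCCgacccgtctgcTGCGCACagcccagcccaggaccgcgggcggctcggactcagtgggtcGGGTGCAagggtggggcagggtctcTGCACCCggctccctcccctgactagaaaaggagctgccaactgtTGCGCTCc
MT2A: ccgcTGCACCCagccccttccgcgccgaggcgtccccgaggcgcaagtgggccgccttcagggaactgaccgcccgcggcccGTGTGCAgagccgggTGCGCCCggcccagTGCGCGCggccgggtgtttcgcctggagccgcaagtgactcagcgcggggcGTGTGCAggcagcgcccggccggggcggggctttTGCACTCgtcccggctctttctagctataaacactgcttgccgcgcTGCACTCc
MT1X: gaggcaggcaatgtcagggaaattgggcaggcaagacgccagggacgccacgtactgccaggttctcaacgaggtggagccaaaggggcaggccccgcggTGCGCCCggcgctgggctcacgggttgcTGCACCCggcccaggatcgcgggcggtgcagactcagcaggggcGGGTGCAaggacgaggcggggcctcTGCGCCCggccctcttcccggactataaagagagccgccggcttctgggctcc
MT1H has 8 matches, MT2A 7 and MT1X 4, and a window of this length with at least 4 makes up 0.370% of 35116. MT1B, listed at 0 in both libraries, has 3.

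Of 26 measured genes of glycolysis and the hypoxia response, 2 were called higher and 0 lower (22 counted, median 0.65 over all 26), 8 met the log2 ratio of 1, and 19 were above their hESC level. PDK1, the kinase that closes the entry of pyruvate into mitochondria, was at 19.4 FPKM in CD13-/ROR2- against 2.49 in hESC, and EGLN3, an oxygen sensor induced by HIF, at 10.7 against 1.59. LDHA (240 against 75.4 FPKM) and the glucose transporter gene SLC2A1 (80.0 against 25.3) fell short of the rule. The glycolytic enzyme gene ENO1 (133 against 138 FPKM) and VEGFA (6.78 against 6.24) were near their hESC level, and the transporter gene SLC2A3 had 93.1 against 170.1. CD13+/ROR2+ had LDHA at 215 FPKM and SLC2A1 at 20.9. Of 20 genes of the p53 and integrated stress responses, 14 were counted, 1 was called lower (GADD45G, 1.09 against 8.39 FPKM) and 0 higher. The median of the 20 was -0.61, and 4 were above their hESC level. CHAC1 had 5.85 FPKM against 22.9 and ATF4, a central factor of the stress response, 112 against 68.8. Cell cycle genes had 26 of 32 counted, 0 called and a median of 0.26, with MKI67 at 33.4 FPKM in CD13-/ROR2- and 13.7 in hESC. On the remaining lists 0 genes were called. Counted were 5 of 17 retinoic acid, 5 of 17 NOTCH, 4 of 13 germ cell and 14 of 15 housekeeping genes. A log2 ratio of 1 was met upward by 2 genes each on the retinoic acid, NOTCH and germ cell lists, and downward by 0. Just under the cut were NOTCH3 (18.4 FPKM in CD13-/ROR2- against 3.99 in hESC) and the retinoic acid gene CRABP2 (19.0 against 4.23).

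Besides those described, the genes with the largest ratios included PLA2G2A, a secreted phospholipase, at 31.6 FPKM in CD13-/ROR2-, 0.359 in CD13+/ROR2+ and 1.07 in hESC. SERPINB9, an inhibitor of granzyme B, was 21.3-fold higher in CD13-/ROR2- (53.2 FPKM) than in hESC, with 19.8 FPKM in CD13+/ROR2+. The protocadherin gene PCDH10 had 17.9, 24.7 and 0.720 FPKM in CD13-/ROR2-, CD13+/ROR2+ and hESC. On the lower side LRAT, which esterifies retinol, was at 0.550 FPKM in CD13-/ROR2- against 16.7 in hESC, and TXNIP, an inhibitor of thioredoxin and glucose uptake, at 0.525 against 15.1. CD13+/ROR2+ was low too, with LRAT at 0.335 and TXNIP at 1.27 FPKM. ARPC2, a subunit of the actin-nucleating Arp2/3 complex, was listed at 0 in CD13-/ROR2- and between 62.8 and 301 FPKM in the other 6 libraries, and the histone gene H3F3A was at 0.00505 FPKM against 6.54 in hESC. For genes that most cells use, such values can be failed estimates.

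**Figure D5:**
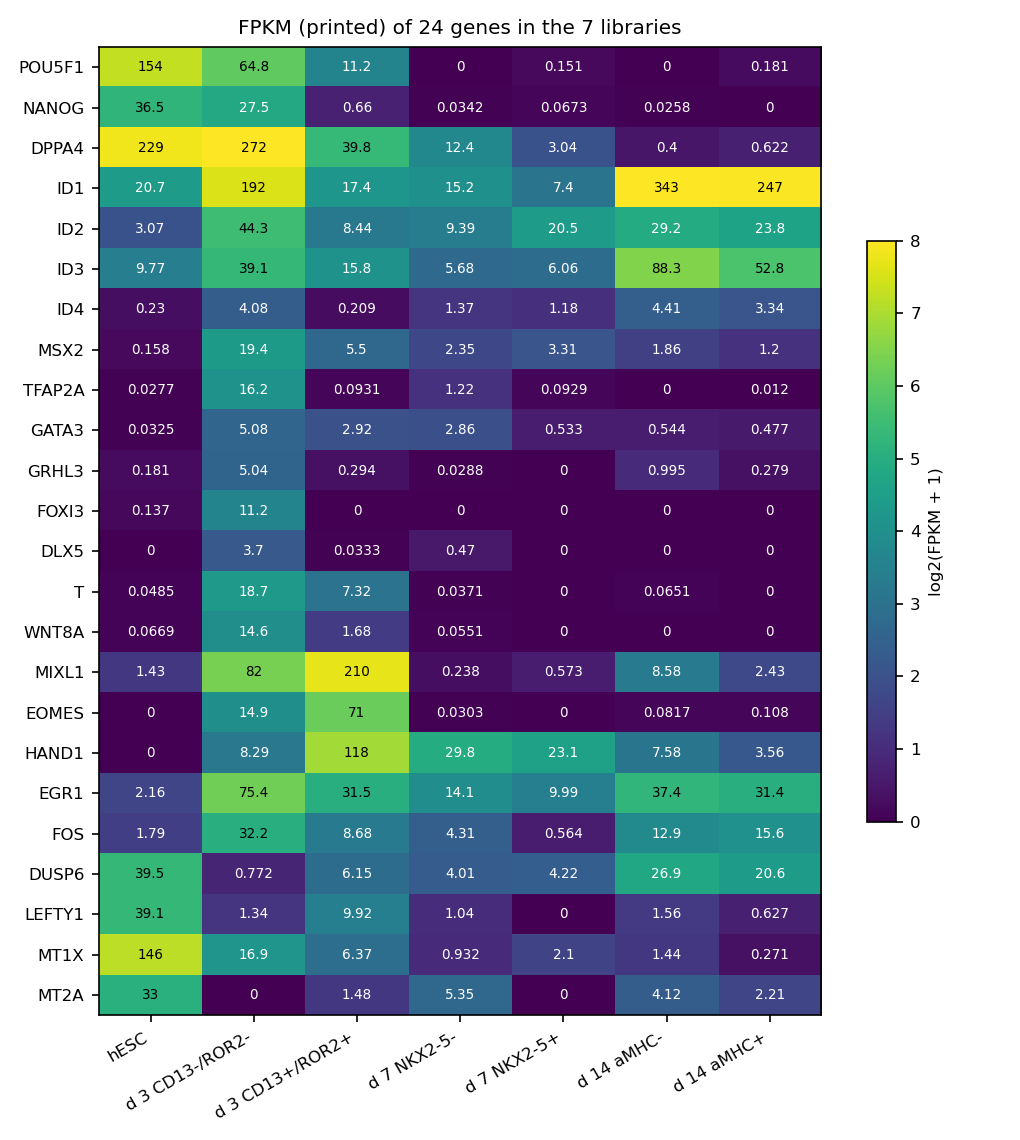
FPKM of 24 genes in the 7 libraries in order of day, coloured by log2(FPKM + 1), with each value printed to 3 digits. TFAP2A, FOXI3, T and WNT8A have their highest level in day 3 CD13-/ROR2-, and MT1X is highest in hESC. POU5F1 and NANOG are at 64.8 and 27.5 FPKM in day 3 CD13-/ROR2-. Both are under 1 FPKM in the day 7 and day 14 libraries, which are of CD13+/ROR2+ cells.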

How the data were processed

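RNA of sorted cells was made into TruSeq RNA v2 libraries, a kit that does not mark strand, and read as single reads of 50 bases with over 12000000 per library, per the labels' protocols. The FPKM values per gene were made by the authors with Cufflinks on hg19, per the submitters' processing notes; versions, aligner and annotation are not given there. At 5 FPKM, a transcript of 1 kilobase would have 60 fragments at that depth (exact Poisson 95% interval 45.8 to 77.2, counting error only).

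In the deposited file, 106 of 23368 entries with blank values were left out, then 1683 MIR, SNOR, SCARNA, RNU and HIST symbols. Log2 ratios used a pseudocount of 1 and a minimum of 5 FPKM in the higher library; plain scripts in Python 3.11.15 (pandas 2.3.3, numpy 2.4.6, scipy 1.17.1) were tested on simulated data. Members and the 26 gene lists, which overlap, were chosen with earlier results of these data known. Named genes are the sort genes, each list's called members, largest ratios and first 4 genes, and the 20 highest and 20 lowest ratios; others, such as ID4, BMP2, LHX1 and AXIN2, were added after their values were seen. Alternatives were other pseudocounts, minimums, scalings and gene filters.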

Additional observations from a re-analysis of the deposited data

How the results depend on the processing

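No paired analysis was possible because each group has 1 library and the labels carry no replicate numbers; for the same reason no library could be left out. The 64 genes called higher became 103 with a pseudocount of 0.1, 16 with 5, and 19 with a minimum of 20 FPKM, and the 45 called lower became 71, 13 and 17. With both libraries set to the same FPKM sum, 168 were higher and 30 lower, including all 64 of the first set, and the median log2 ratio of all counted genes was 0.51. The sums before scaling were 175224 and 251120 FPKM. Under median-ratio scaling 67 were higher and 42 lower, and 57 and 46 when sums were equalised without small RNA and HIST symbols, a setting chosen after seeing the data. Medians over the list members that reached 5 FPKM rest on genes kept for being high in 1 library. Without that minimum the median was 0.94 for streak genes, 0.47 for mesoderm, 0.58 for amnion and surface ectoderm and 0.27 for endoderm genes, the values given above. The endoderm median, 1.09 over 4 genes, was 0.31 with a pseudocount of 5 and -0.48 both with a minimum of 20 FPKM and with genes listed at 0 left out, each of which removes members. The neuroectoderm median of 2 genes, 0.65, was 1.13 at the same FPKM sum. That of 16 FGF and ERK feedback genes, -0.87, was -0.08 there. The BMP median (2.28) and the pluripotency median (0.07) kept their side of 1 throughout. Depth limits values under 1 FPKM, where zeros cannot be told from low levels.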

Other observations

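Values of 4 further genes of neuropeptides or their receptors, on no list and picked after their values were seen, were as follows. GAL, which encodes galanin, was at 317 FPKM in CD13-/ROR2-, 41.8 in CD13+/ROR2+ and 49.1 in hESC. NTS, the neurotensin gene, had 28.9, 59.3 and 3.20 FPKM in the same libraries. GRPR, the receptor of gastrin-releasing peptide, had 44.2, 11.9 and 10.8 FPKM. CALCA, which encodes calcitonin and a related peptide, had 0.612, 0.270 and 5.44 FPKM.

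CHCHD2, a mitochondrial protein gene, had the third largest ratio of all counted genes, with 26.1 FPKM in CD13-/ROR2-, 23.3 in CD13+/ROR2+ and 0.171 in hESC. It was at 30.4 and 19.1 FPKM in the day 7 NKX2-5- and NKX2-5+ libraries, listed at 0 in day 14 aMHC- and at 0.0836 in aMHC+. Its listed level was thus near 0 in 3 of the 7 libraries and of similar size in the other 4. As for ARPC2, the values at or near 0 can be failed estimates, which was not tested.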
